A study of Mus musculus with 23 samples.

Results

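Imprinted growth genes are transcribed mainly from the maternal or the paternal chromosome and take part in the control of growth before and after birth. A list of 10 such genes was followed here: Igf2, H19, Igf2os, Cdkn1c, Dlk1, Meg3, Plagl1, Peg3, Grb10 and Mest. They were taken by name from the 47593 gene symbols of each count file, and all 10 were among the 16535 genes with enough counts to test. Poly(A) RNA was sequenced from gut epithelium (the medial part of the small intestine) of mice of the CD1 strain, with no transgene or treatment stated. The cells were released with EDTA and sorted by the surface proteins Epcam and CD44, and the labels name Epcam+ CD44+ cells crypt and Epcam+ CD44- cells villus. Each population was sampled at birth (P0) and at postnatal days 3, 6 and 10 (P3, P6 and P10), with 3 libraries a group, except 2 for P6 villus, 23 in all. The labels do not say whether the libraries of a group came from separate animals, litters or pools, and the p-values below therefore reflect only how far these libraries differ among themselves, which may be technical.

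Imprinted genes sit in clusters in which DNA methylation set in the egg or sperm decides which parental copy is active. Igf2, a paternally expressed growth factor, and H19, a maternally expressed noncoding RNA, share enhancers, and the insulator protein CTCF separates them on the maternal copy. Both are abundant in fetal tissues and are shut down after birth in many organs, together with several other imprinted genes. The counts were not split by parental allele, so they give the total RNA of a gene and not its imprinting. In sorted bulk cells, fewer cells of a type and less RNA per cell cannot be told apart.

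Library totals ran from 23545159 to 37055554 counts assigned to genes. Levels are given as CPM, the count of a gene scaled to a common library size, after TMM scaling, which adjusts library size for differences in composition. Counted transcripts had a mean GC content of 49.8% to 50.5% at P0 and P10, but 46.7% to 48% at P3 and 45.5% to 45.8% at P6, in both populations, so P10 was compared with P0 first. The populations carried the markers of their labels: Epcam lay between 875 and 2107 CPM in all libraries, and Cd44 at P0 between 32.4 and 53.9 CPM in crypt against 2.6 to 10.6 CPM in villus. Cd44 was 98.7 to 151 CPM in P6 crypt against 24.8 to 53.6 CPM in P6 villus. At P10 it was 63.1 to 79.4 CPM in crypt against 22.1 to 24.7 CPM in villus, so Cd44 in villus was higher at P6 and P10 than at P0. P0 crypt library 1 stood apart from its group, with a summed level of 5 villus enterocyte markers of 23268 CPM against 4657 and 9074 CPM in the other P0 crypt libraries and 30758 to 35359 CPM in P0 villus. P0 villus library 1 also stood apart, with summed goblet markers of 1531 CPM against 3133 and 3457 CPM. Reads of the mitochondrial genome made up 3.54% to 5.91% of counts in P0 crypt and 5.14% to 11.7% in P0 villus, 6.14% to 12.4% at P3 and P6 over both populations, and 2.98% to 4.09% in P10 crypt and 3.61% to 5.18% in P10 villus, and with the mitochondrially encoded genes left out of the fit the count of the 10 genes called from P0 to P10 was 7 in each population, as with them. The part of this share in the other results was not tested.

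The gene bodies and promoters are given first because 5 of the members lie in pairs. In the GENCODE M21 annotation of the mouse build GRCm38, H19 (chr7:142575529-142578143) and Igf2 (chr7:142650766-142666816) are neighbours on the minus strand of chromosome 7, and the long noncoding RNA Igf2os (chr7:142659693-142670356) runs antisense to Igf2. Exons of Igf2 and Igf2os share 98 bases, 1.71% of the exon bases of Igf2. The strand setting of the counting is not given in the sources used here, so reads of these overlapping genes cannot be told apart with certainty and Igf2os values are uncertain. Dlk1 (chr12:109452823-109463336) and Meg3 (chr12:109541001-109571726) are neighbours on the plus strand of chromosome 12.

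RefSeq promoter windows (GRCm38.p6), of 300 bases from 250 bases before to 50 bases after a start, were at hand for 7 of the 10 members. A window of Igf2 and one of Dlk1 are shown as genes that fell after birth, and one of Grb10 as a gene that did not pass the test for a fall, each being the window of its gene with the most CpG dinucleotides. Capitals mark CpG, the site of DNA methylation in mammals.
Igf2, chr7:142658755-142659054, minus strand: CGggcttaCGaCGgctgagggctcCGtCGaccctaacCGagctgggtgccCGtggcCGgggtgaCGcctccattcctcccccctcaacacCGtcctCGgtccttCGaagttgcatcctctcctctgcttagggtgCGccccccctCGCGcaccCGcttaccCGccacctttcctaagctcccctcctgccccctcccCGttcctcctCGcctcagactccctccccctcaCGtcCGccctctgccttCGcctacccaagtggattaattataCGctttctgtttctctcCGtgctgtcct
Dlk1, chr12:109452573-109452872, plus strand: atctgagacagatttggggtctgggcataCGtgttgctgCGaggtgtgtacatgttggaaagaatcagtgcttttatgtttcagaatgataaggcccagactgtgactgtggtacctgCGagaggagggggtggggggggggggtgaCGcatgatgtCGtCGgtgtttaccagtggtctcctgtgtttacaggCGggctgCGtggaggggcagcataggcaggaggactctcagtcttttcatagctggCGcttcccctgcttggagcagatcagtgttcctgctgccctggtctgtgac
Grb10, chr11:12037371-12037670, minus strand: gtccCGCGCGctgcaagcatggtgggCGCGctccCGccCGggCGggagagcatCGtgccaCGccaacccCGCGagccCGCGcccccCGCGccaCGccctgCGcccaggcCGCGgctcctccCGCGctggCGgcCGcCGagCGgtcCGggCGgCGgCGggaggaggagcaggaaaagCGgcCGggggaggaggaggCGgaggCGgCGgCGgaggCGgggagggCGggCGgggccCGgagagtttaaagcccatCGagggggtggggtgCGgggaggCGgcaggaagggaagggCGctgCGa

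The Grb10 window held 45 CpG, which 1.93% of the 32851 windows of that length reached, the Igf2 window 24 (20% reached it) and the Dlk1 window 9 (45.8% reached it), against a median of 7. The other Grb10 window held 9 and the other Igf2 windows 7, 14 and 2. Among the other members with a window, the richest held 26 for Plagl1 and 13 for Meg3, which fell. It held 17 for Mest and 13 for Peg3, which did not pass the test for a fall. The GC box GGGCGG, searched on both strands, occurred 5 times in the Grb10 window, 1 time in the Igf2 window and 0 times in the Dlk1 window, and 35.7% of all windows held it. The TATA motif TATAAA, searched likewise, occurred in none of the 3 windows, and 13.6% of all windows held it. Methylation was not measured here, so these are descriptions of sequence only.

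H19 is also the precursor of a microRNA, and its mature forms are shown because the H19 RNA changed most; capitals mark the seed, bases 2 to 8.
mmu-miR-675-5p: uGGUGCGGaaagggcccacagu
mmu-miR-675-3p: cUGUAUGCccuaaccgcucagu
The seeds differ between the arms. Libraries of poly(A) RNA do not measure mature microRNAs, and the microRNA's own row held 0 counts in every library.

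From P0 to P10, 7 of the 10 genes fell in crypt cells and 7 fell in villus cells (edgeR quasi-likelihood test across 16535 genes, Benjamini-Hochberg adjusted p under 0.05), and none rose. The same genes were called in each population: Igf2, H19, Igf2os, Cdkn1c, Dlk1, Meg3 and Plagl1. Dlk1 and Mest passed the count filter through P0 libraries only, with at most 8 counts in any library after P0. For Dlk1 and Mest a call against P0 could therefore hardly be other than a fall. Over all genes tested, 9.89% were called lower in crypt and 11.0% in villus. The median log2 change of the 10 genes was -3.17 in crypt and -2.77 in villus, against -0.02 and -0.01 over all genes tested. The P0 and P10 libraries did not overlap for 8 of the 10 genes in crypt and 5 in villus, always with P10 lower, against 21.9% and 17.5% of all genes.

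**Figure D1:**
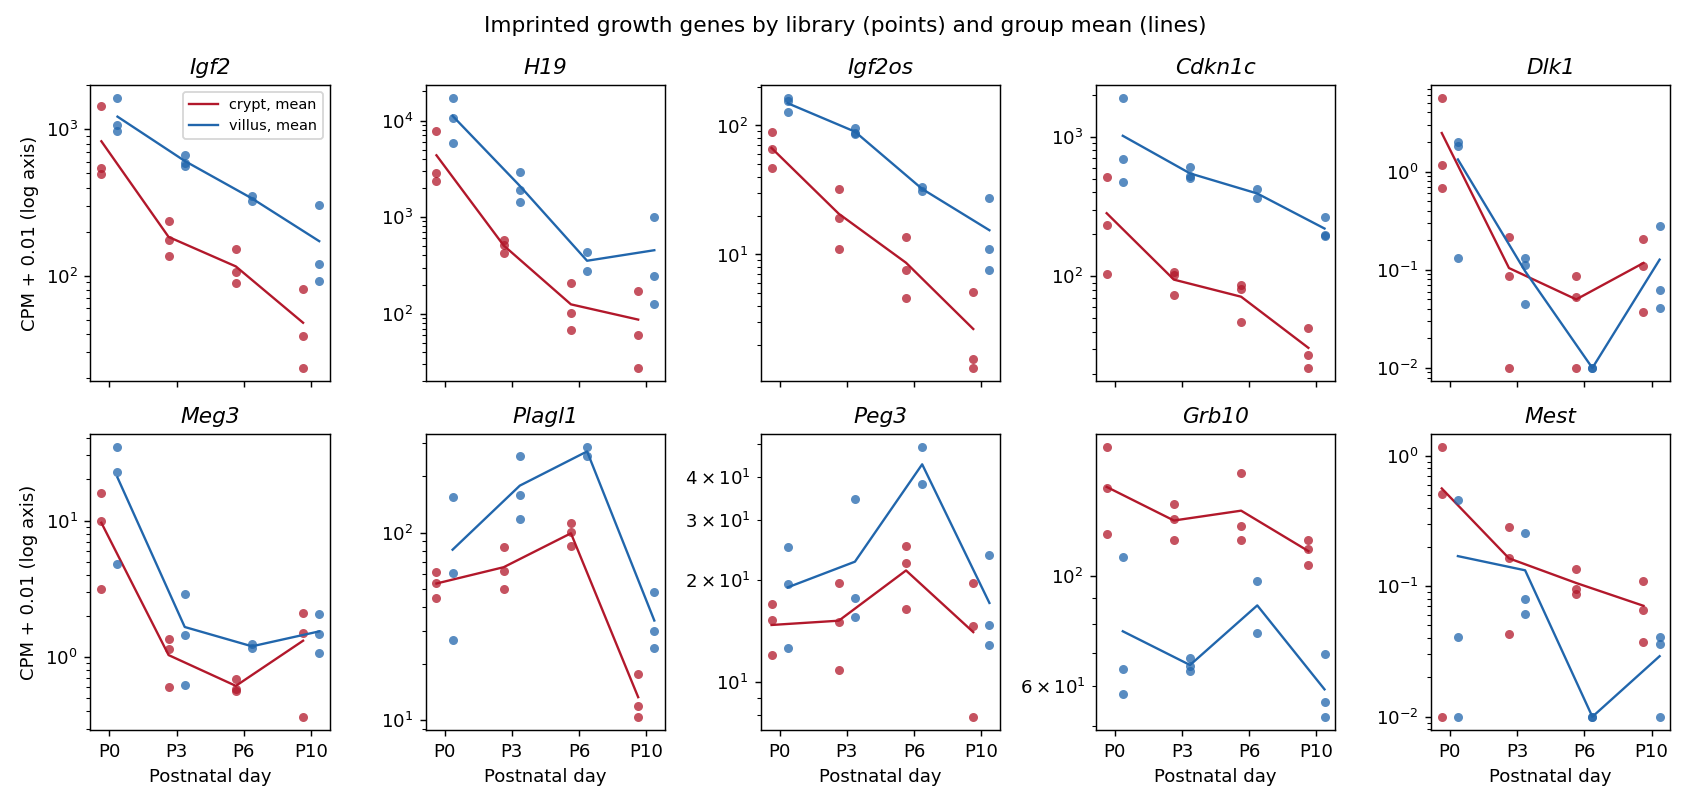
Level of each gene in each library (points, CPM plus 0.01, log axis) by postnatal day, with lines through the group means, crypt in red and villus in blue. Igf2 lay at 493 CPM or more in every P0 library and at 304 CPM or less in every P10 library, whereas Grb10 lay between 52.1 and 181 CPM in all 23 libraries.

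Igf2 encodes insulin-like growth factor 2, a fetal growth factor that signals through the IGF1 and insulin receptors. Its level in P0 crypt was 1450, 545 and 493 CPM, and in P10 crypt 38.3, 23.3 and 81 CPM. In villus it was 971, 1629 and 1067 CPM at P0 and 120, 91.6 and 304 CPM at P10. Every P10 library lay below every P0 library of its population, and P0 crypt library 1 was the highest crypt library. The log2 change was -4.12 ± 0.52 (SE) in crypt, a 17.4-fold fall (adjusted p = 4.14e-05), and -2.83 ± 0.49 in villus, a 7.12-fold fall (adjusted p = 0.000761). Without P0 crypt library 1 the crypt change was -3.45 (adjusted p = 0.000191).

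H19 is the noncoding RNA of the cluster whose gene competes with Igf2 for enhancers, and it was the most abundant of the 10 at P0 per length of exon, at 1774 CPM per kilobase in crypt and 4541 in villus. Its level was 7879, 2848 and 2363 CPM in P0 crypt and 59.5, 27.3 and 173 CPM in P10 crypt. In villus it was 5830, 16950 and 10730 CPM at P0 and 243, 125 and 992 CPM at P10. P0 villus libraries 2 and 3, the highest for H19 and for Meg3, also had the highest mitochondrial shares of all P0 libraries (10.7% and 11.7%). The groups did not overlap in either population, and at P0 H19 alone took 0.265% to 1.63% of all counts of a library. The log2 change was -5.65 ± 0.85 in crypt, a 50.4-fold fall (adjusted p = 0.000235), and -4.62 ± 0.81 in villus, a 24.6-fold fall (adjusted p = 0.000856). Without P0 crypt library 1 the crypt change was -4.91 (adjusted p = 0.000881).

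Igf2os, the antisense transcript of the Igf2 locus, had 88.6, 46.4 and 65.5 CPM in P0 crypt and 1.53, 1.31 and 5.07 CPM in P10 crypt. In villus it had 162, 128 and 156 CPM at P0 and 11, 7.63 and 27.6 CPM at P10. It fell with its sense gene in both populations, with no overlap between ages. The log2 change was -4.68 ± 0.58 in crypt (adjusted p = 4.06e-05) and -3.28 ± 0.53 in villus (adjusted p = 0.0005).

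Cdkn1c encodes p57, an inhibitor of cyclin-dependent kinases that restrains the cell cycle and is expressed from the maternal copy. Its level was 515, 232 and 104 CPM in P0 crypt and 22.1, 27.3 and 43 CPM in P10 crypt. In villus it was 476, 1882 and 691 CPM at P0 and 198, 196 and 267 CPM at P10. P0 villus library 2 was the highest, and no P10 library reached the lowest P0 library of its population. Cdkn1c fell by 3.20 ± 0.50 on the log2 scale in crypt (adjusted p = 0.000325) and by 2.20 ± 0.48 in villus (adjusted p = 0.00382). Without P0 crypt library 1 the crypt change was -2.45 (adjusted p = 0.00219).

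The chromosome 12 pair fell from far lower levels. Meg3, a maternally expressed noncoding RNA, had 15.8, 9.94 and 3.12 CPM in P0 crypt and 2.08, 0.356 and 1.49 CPM in P10 crypt. In villus it had 4.77, 34.4 and 22.7 CPM at P0 and 1.46, 1.07 and 2.07 CPM at P10. The groups did not overlap, with a log2 change of -2.88 ± 0.69 in crypt (adjusted p = 0.00712) and -3.75 ± 0.71 in villus (adjusted p = 0.00136). Dlk1 encodes a paternally expressed transmembrane protein of the Notch ligand type that restrains differentiation of precursor cells. It had 5.54, 1.15 and 0.677 CPM in P0 crypt, or 183, 38 and 23 counts, and 0.195, 0.0274 and 0.0993 CPM in P10 crypt, or 7, 1 and 3 counts. In villus it had 4, 43 and 49 counts at P0 and 1, 2 and 8 counts at P10, so that the groups overlapped through P0 villus library 1. The log2 change was -4.46 ± 1.05 in crypt (adjusted p = 0.00655) and -3.48 ± 1.05 in villus (adjusted p = 0.0242). The crypt call was lost without P0 crypt library 1 (-3.04, adjusted p = 0.0674), and the villus call, lost without P0 villus library 2 or 3 or P10 villus library 1 or 2, held in 11 of the 18 other settings of processing and left-out libraries that could be run, over which the adjusted p ran from 0.000952 to 0.103.

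Plagl1 encodes a zinc finger transcription factor, paternally expressed, that regulates other imprinted genes. Its level was 53.6, 45 and 62 CPM in P0 crypt and 10.4, 11.8 and 17.5 CPM in P10 crypt, with no overlap. In villus it was 156, 26.6 and 60.8 CPM at P0 and 29.8, 24.1 and 48 CPM at P10, and the ranges overlapped. It fell by 2.02 ± 0.44 on the log2 scale in crypt (adjusted p = 0.00418) and by 1.25 ± 0.43 in villus (adjusted p = 0.0436). The villus call was lost without P0 villus library 1, at a change of -0.37 (adjusted p = 0.445), and also without P0 villus library 3, P10 villus library 1 or P10 villus library 2 (adjusted p = 0.0572, 0.113 and 0.164). In all, the villus call held in only 6 of the 19 other settings of processing and left-out libraries.

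The other 3 genes did not pass the test. Grb10 encodes an adaptor that binds the insulin and IGF1 receptors and limits their signalling. It had 121, 181 and 150 CPM in P0 crypt and 105, 118 and 113 CPM in P10 crypt, and 109, 65.1 and 57.9 CPM in P0 villus and 52.1, 69.5 and 55.8 CPM in P10 villus. The crypt groups did not overlap, yet the log2 change of -0.43 ± 0.20 did not pass the test (adjusted p = 0.15; 95% interval -0.85 to -0.01), nor did that of -0.39 ± 0.20 in villus (adjusted p = 0.174; -0.80 to 0.03). Without both P0 number 1 libraries the crypt change was called (-0.57, adjusted p = 0.0227). Peg3, a paternally expressed zinc finger gene, had 12 to 17 CPM in P0 crypt and 7.92 to 19.6 CPM in P10 crypt, and 12.6 to 25 CPM in P0 villus and 12.9 to 23.7 CPM in P10 villus. Its groups overlapped in both populations, and the intervals of its log2 change ran from -0.79 to 0.65 in crypt and from -0.87 to 0.57 in villus. Mest, a paternally expressed gene of the hydrolase fold family that is strong in mesoderm, was near the limit of detection: 38, 0 and 17 counts in P0 crypt, 2, 1 and 3 in P10 crypt, 1, 0 and 11 in P0 villus and 1, 1 and 0 in P10 villus. In villus, its P0 level was 7.47 times that at P10 over the summed counts (95% interval 1.66 to 68.7, Clopper-Pearson, counting error only), and neither population passed the test (adjusted p = 0.0667 and 0.202).

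**Figure D2:**
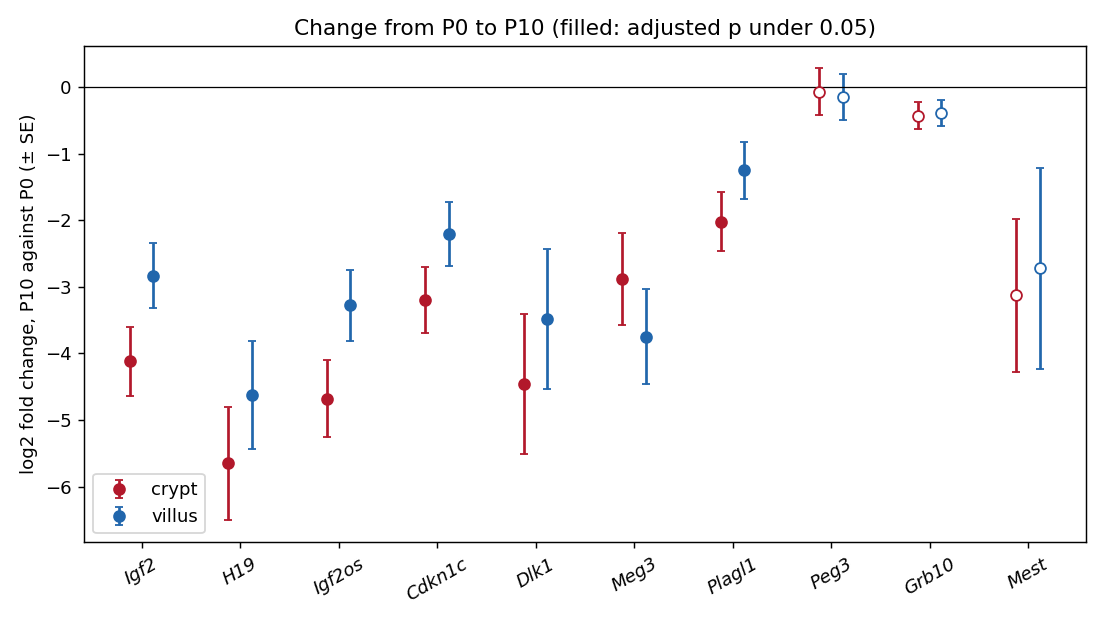
Log2 fold change from P0 to P10 with its standard error for each gene in crypt (red) and villus (blue), filled where the adjusted p was under 0.05. The genes at the Igf2 cluster and Cdkn1c lie between -5.65 and -2.20, whereas Peg3 lies at -0.07 and -0.15 and Grb10 at -0.43 and -0.39.

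Whether the fall was deeper in one population was tested as the difference of the P0 to P10 change, crypt minus villus. None of the 10 genes was called, nor was any of the 16535 genes (0%), although 1157 genes had an unadjusted p under 0.05 and DESeq2 called 9. With the replicate block alone 166 genes were called, none of the 10 among them. The difference was below 0 for 8 of the 10 genes, with a median of -0.87 against -0.03 over all genes, but for 6 without P0 crypt library 1 (median -0.21) and for 4 without both P0 number 1 libraries (median 0.06). For Igf2 it was -1.29 (95% interval -2.65 to 0.07, adjusted p = 0.684), for Igf2os -1.40 (-2.89 to 0.09), for H19 -1.03 (-3.09 to 1.02) and for Cdkn1c 2-fold in the same direction (log2 interval -2.37 to 0.37). For Meg3 it was 0.87 (-1.06 to 2.80), for Plagl1 -0.76 (-2.02 to 0.50), for Grb10 -0.04 (-0.64 to 0.55) and for Peg3 0.08 (-0.94 to 1.10). For Dlk1 it was -0.98 (-4.16 to 2.20) and for Mest -0.41 (-7.87 to 7.06), both on few counts. All 10 intervals held 0, and all but those of Grb10 and Peg3 also reached past a 4-fold difference. For the genes other than Grb10 and Peg3, these data thus neither show a deeper fall in 1 population nor bound it closely. Without P0 crypt library 1 the differences were -0.62 for Igf2, -0.29 for H19 and -0.24 for Cdkn1c, and without both P0 number 1 libraries -0.48, 0.02 and 0.10. Leaving out P0 villus library 1 raised the genes called from 0 to 1076 over the whole table, but none of the 10 was among them.

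Whether the fall was earlier in one population rests on P3 and P6, where GC content had shifted. From P0 to P3, 6 of the 10 genes fell in crypt (Igf2, H19, Igf2os, Cdkn1c, Dlk1 and Meg3), against 28.1% of all genes tested. In villus 3 fell (H19, Dlk1 and Meg3), against 30.6%, and Plagl1 rose, against 29.4%. Igf2 in P3 crypt had 238, 176 and 137 CPM, all below P0, a log2 change of -2.17 ± 0.48 (adjusted p = 0.00091). In P3 villus it had 564, 593 and 667 CPM, also all below P0, but its change of -1.01 ± 0.46 did not pass (adjusted p = 0.0669). H19 fell by 3.10 ± 0.75 in crypt (adjusted p = 0.00206) and by 2.41 ± 0.73 in villus (adjusted p = 0.00803). Meg3 dropped to 1.13, 1.35 and 0.595 CPM in P3 crypt and 0.615, 2.91 and 1.43 CPM in P3 villus, with log2 changes of -3.23 ± 0.71 and -3.66 ± 0.71, about as large as those by P10. Plagl1 in villus rose by 1.14 ± 0.43 (adjusted p = 0.0277) to 159, 258 and 118 CPM. That rise was 2.03 without both P0 number 1 libraries, which include the highest P0 villus library, but lost its call without P0 villus library 2 or 3 or P3 villus library 2 (0.72, 0.97 and 0.73). The P0 to P3 call of Cdkn1c in crypt was lost without P0 crypt library 1 (-0.82, adjusted p = 0.131).

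The difference of the P0 to P3 change between populations was not called for any of the 10 genes or for any gene tested (0%; 1696 genes had an unadjusted p under 0.05 and DESeq2 called 3). With the replicate block alone 175 genes were called, none of the 10 among them. The P0 to P3 difference was below 0 for 9 of the 10 genes, with a median of -0.73 against -0.05 over all genes, but for 6 without P0 crypt library 1 (median -0.12) and for 4 without both P0 number 1 libraries (median 0.14). For Igf2 it was -1.17 (95% interval -2.52 to 0.19, adjusted p = 0.529), for H19 -0.70 (-2.75 to 1.36), for Cdkn1c -0.68 (-2.05 to 0.68) and for Plagl1 -0.85 (-2.10 to 0.41). Without P0 crypt library 1 it was -0.49 for Igf2, 0.05 for H19, 0.07 for Cdkn1c, 0.66 for Dlk1 and 0.98 for Meg3. Plagl1 alone was called without both P0 number 1 libraries (-1.74, adjusted p = 0.0441), a setting in which 1657 of all 16406 genes were called. Without P0 villus library 1 alone, 1513 of 16508 genes were called, with 1 of the 10 among them. The difference of the P3 to P10 change was likewise called for none of the 10 and for no gene tested (0%; 319 with an unadjusted p under 0.05, 1 called by DESeq2). An earlier fall in crypt was therefore not shown, and a difference of up to about 2.52 on the log2 scale for Igf2 lay within the interval.

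The timing estimates also changed when transcript GC content and length were adjusted for. GC content shifted at P3 and P6 in both populations, so its part cannot be told apart from that of age. With offsets that remove each library's trend on transcript GC content and length, the P0 to P3 change of Igf2 was -1.27 in crypt (adjusted p = 0.0425) and 0.00 in villus, and that of Cdkn1c, with 60.1% GC the most GC-rich of the 10, turned from -1.58 to 0.08 in crypt. Igf2os lost its crypt call (-0.54, adjusted p = 0.447) and stood at 0.68 in villus. H19 stayed lower at -2.26 in crypt (adjusted p = 0.025) but lost its call in villus (-1.53, adjusted p = 0.0907), and Meg3 kept its call in both populations (-2.21 and -2.39). Dlk1 kept its call in crypt (-3.51, adjusted p = 0.0168) and lost it in villus (-2.56, adjusted p = 0.0763). Plagl1 rose more, by 2.19 in villus (adjusted p = 0.00622). The P0 to P10 changes moved little under the same offsets: -3.97 and -2.61 for Igf2, -5.50 and -4.42 for H19, -3.14 and -1.90 for Cdkn1c, in crypt and villus. Of the P10 calls, the offsets ended that of Plagl1 in villus (-1.10, adjusted p = 0.167).

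**Figure D3:**
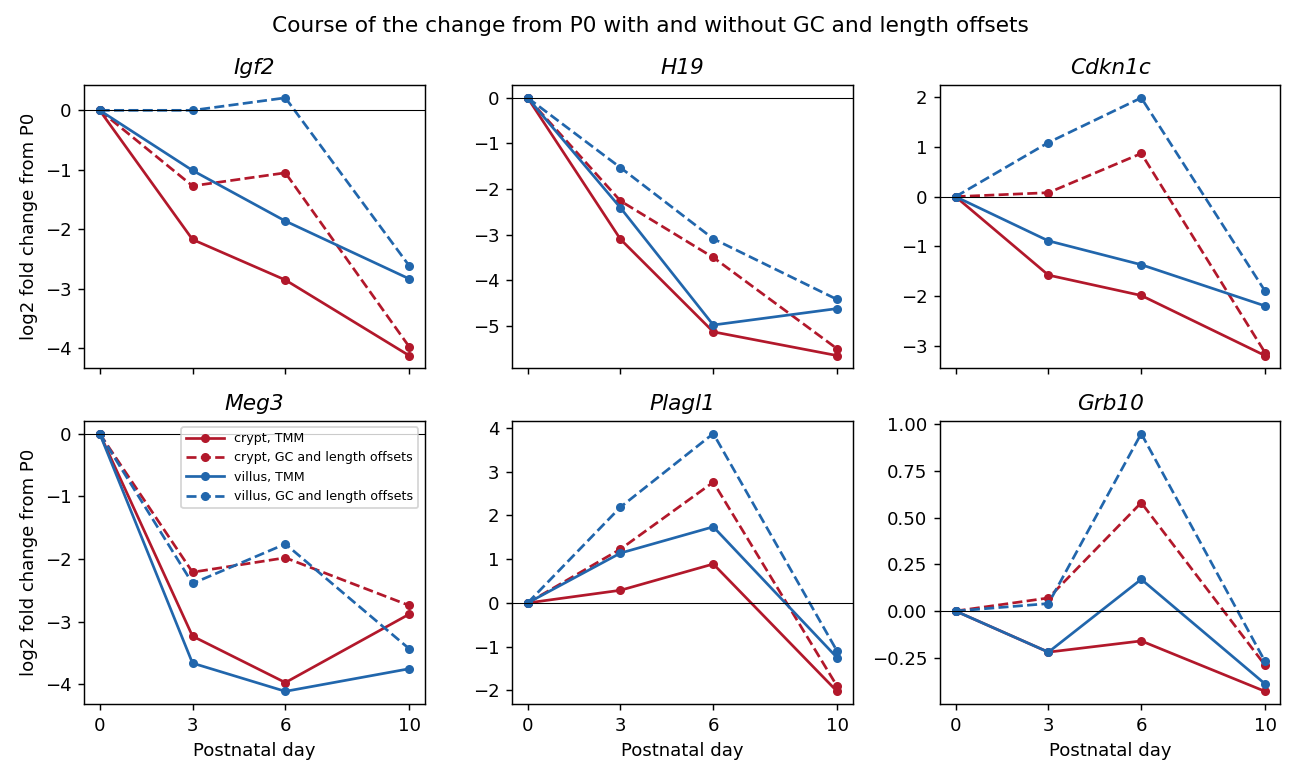
Log2 fold change from P0 at postnatal days 3, 6 and 10 for 6 genes in crypt (red) and villus (blue), with TMM scaling (solid) and with GC and length offsets (dashed). Solid and dashed lines meet near the same value at P10 but part at P3 and P6, where Cdkn1c reached -1.37 in P6 villus with TMM scaling and 1.99 with the offsets.

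Between P3 and P6, H19 and Igf2os fell in crypt (26.0% of all genes called lower) and in villus (26.4%), and Peg3 rose in villus (21.7% called higher). H19 went down by 2.03 ± 0.72 in crypt (adjusted p = 0.0281) and by 2.58 ± 0.86 in villus (adjusted p = 0.0191). None of these 4 calls held with the GC offsets, with adjusted p = 0.206 and 0.16 for H19, and changes of -0.11 (adjusted p = 0.901) in crypt and -0.16 (adjusted p = 0.863) in villus for Igf2os. Peg3 reached its highest level in P6 villus, 49 and 38.3 CPM (0.95 ± 0.38 above P3, adjusted p = 0.0439), a call that the offsets also ended (0.52, adjusted p = 0.325). The H19 and Igf2os crypt calls were lost without P3 crypt library 1 or without P6 crypt library 1 or 2, that of Igf2os also without P3 crypt library 2, and the villus calls of H19, Igf2os and Peg3 without P3 villus library 3 or either P6 villus library, those of Igf2os and Peg3 also without P3 villus library 1. Dlk1 and Mest had 0 counts in both P6 villus libraries, which allows up to 3 counts in each.

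Between P6 and P10, 4 genes fell in crypt (Igf2, Igf2os, Cdkn1c and Plagl1), against 32.1% of all genes, and 3 in villus (Plagl1, Peg3 and Grb10), against 33.3%. Plagl1 had the largest called change in each population, from 84.8, 101 and 112 CPM to 10.4, 11.8 and 17.5 CPM in crypt and from 257 and 286 CPM to 29.8, 24.1 and 48 CPM in villus. Its log2 change was -2.91 ± 0.46 in crypt (adjusted p = 1.16e-05) and -3.00 ± 0.48 in villus (adjusted p = 1.47e-05), and it was called in all 17 crypt and 16 villus alternatives, offsets included. Plagl1 thus had its highest group means at P6 (99.5 CPM in crypt, 272 CPM in villus) and its lowest at P10. With the offsets, the log2 change of Igf2 in this interval was -2.92 in crypt and -2.82 in villus, and that of Cdkn1c -4.01 and -3.89, all called. With TMM scaling the crypt calls of Igf2 and Cdkn1c were lost without P6 crypt library 3 or P10 crypt library 1 or 2, that of Cdkn1c also without P6 crypt library 2, and that of Igf2os without P6 crypt library 3. The villus calls of Peg3 and Grb10 were lost without P6 villus library 1 (-0.95 and -0.17), that of Peg3 also with the offsets (-0.86, adjusted p = 0.0701), and that of Grb10 also without P6 villus library 2 or P10 villus library 1 or 3.

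At each age the populations were also compared directly. In crypt relative to villus at P0, Cdkn1c was lower (-1.84 ± 0.48, adjusted p = 0.00817; 10.3% of all genes called lower) and Grb10 higher (0.96 ± 0.20, adjusted p = 0.0019; 16.5% called higher). At P3, 5 genes were lower (Igf2, H19, Igf2os, Cdkn1c and Plagl1; 16.8%) and Grb10 was higher (16.4%). At P6, with 2 villus libraries, Igf2, Igf2os, Cdkn1c and Plagl1 were lower (10.8%), and Grb10, with all crypt libraries above all villus libraries, missed the threshold (0.63 ± 0.23, adjusted p = 0.0538). At P10 the same 5 genes as at P3 were lower (11.6%) and Grb10 was higher (12.6%).

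Cdkn1c was lower in crypt at every age, with log2 differences of -2.53 ± 0.49 at P3, -2.46 ± 0.52 at P6 and -2.84 ± 0.50 at P10, and of -2.60 at P0 without P0 crypt library 1. Its P0 call was lost without P0 villus library 2, the library with 1882 CPM (-1.04, adjusted p = 0.0986). Grb10 was the one member called higher in crypt, 1.95-fold at P0, 1.95-fold at P3 and 1.89-fold at P10. Mest, on few counts, also had estimates above 0 at every age (1.80 at P0, 0.30 at P3 and 1.39 at P10), and so did Dlk1 at P0 (0.91), but none of these was called. Igf2 was 3.31-fold lower in crypt at P3 (-1.73 ± 0.47, adjusted p = 0.00797) and 3.61-fold lower at P10 (-1.85 ± 0.47, adjusted p = 0.00741), but not called at P0 (-0.56 ± 0.46, adjusted p = 0.382). P0 crypt library 1 held the highest crypt level of Igf2, H19, Cdkn1c, Dlk1 and Meg3 and villus markers above its group. Without both P0 number 1 libraries 5 genes were called at P0, with Igf2 at -1.38 (adjusted p = 0.043), H19 at -2.41 (adjusted p = 0.0365) and Meg3 at -2.13 (adjusted p = 0.0145). The share of all genes called at P0 in that setting is not given here. For the difference of the P0 to P10 change, that setting called 1379 of 16406 genes, against 0 with all libraries. P10 villus library 3 was the highest villus library at P10 for Igf2 (304 CPM) and H19 (992 CPM). Without it 3 genes were called at P10, since Igf2 (-1.16), H19 (-1.09) and Plagl1 (-1.03) lost their calls. The H19 and Plagl1 calls at P10 were also lost without P10 crypt library 1 or 2. At P3 the H19 call was lost without any 1 of the libraries but P3 villus library 1, and that of Plagl1 without P3 crypt library 1 or P3 villus library 2. At P6 the calls of Igf2, Igf2os and Plagl1 were each lost without P6 crypt library 1 or 2 or either villus library, that of Plagl1 also without P6 crypt library 3, whereas that of Cdkn1c held.

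**Figure D4:**
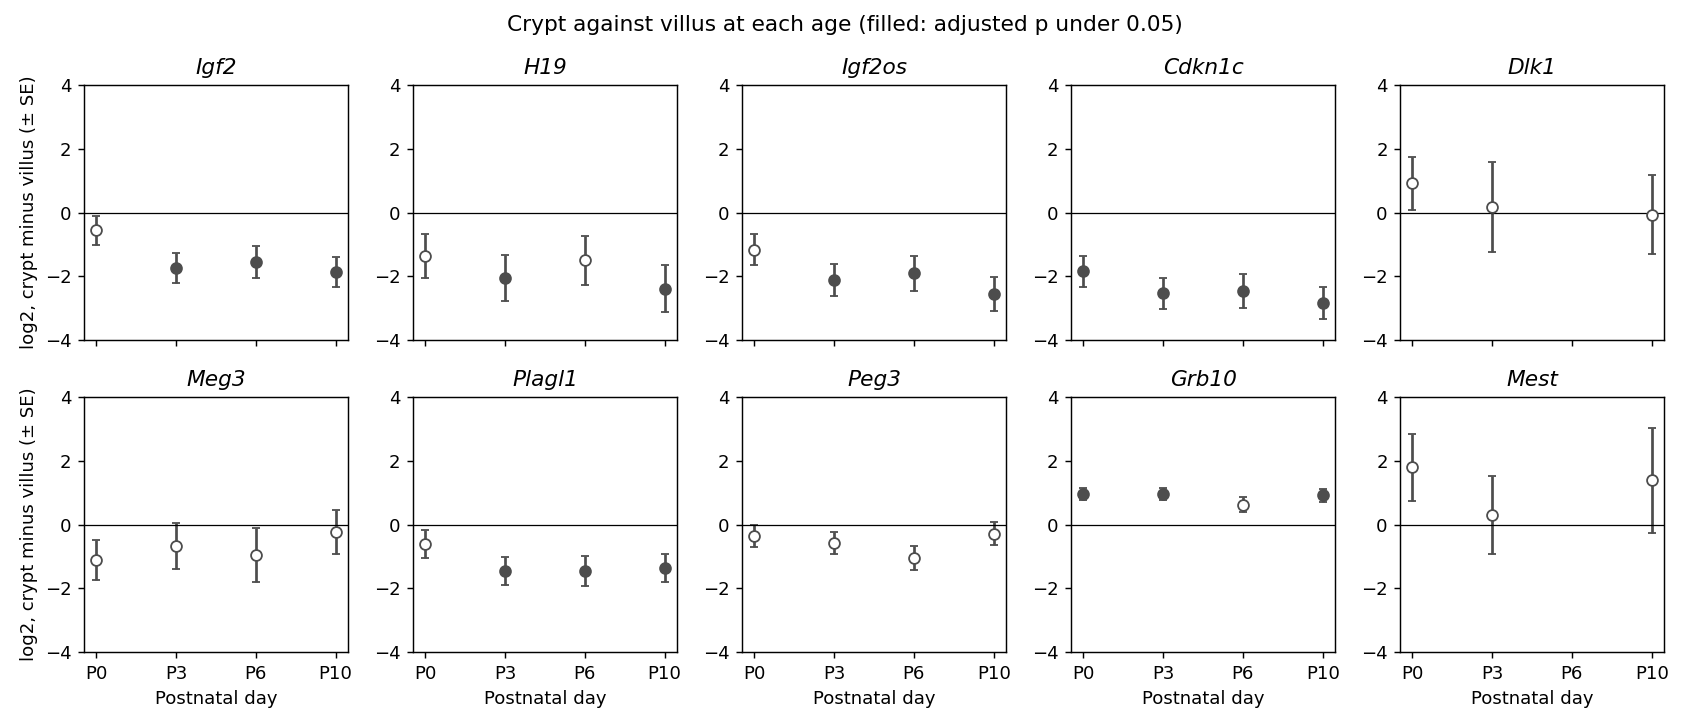
Log2 difference, crypt minus villus, with its standard error at each age, filled where the adjusted p was under 0.05; Dlk1 and Mest at P6 are left out because both villus libraries held 0 counts. Cdkn1c lies below 0 and Grb10 above 0 at all 4 ages.

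The order of the group means differed between genes. For Igf2 it ran from P0 villus (1222 CPM) over P0 crypt (829), P3 villus (608), P6 villus (337), P3 crypt (184), P10 villus (172) and P6 crypt (115) to P10 crypt (47.5). The libraries of P3 villus and P6 villus, of P6 villus and P3 crypt, and of P6 crypt and P10 crypt did not overlap, whereas the other neighbours did. For Cdkn1c the villus groups of P0, P3 and P6 came first (1016, 547 and 392 CPM) and P10 crypt last (30.8 CPM). For Grb10 all 4 crypt groups (112 to 151 CPM) stood above all 4 villus groups (59.1 to 87.1 CPM), and P10 crypt and P6 villus did not overlap.

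The ratio of H19 to Igf2 was lower at P10 than at P0. The number of H19 counts per Igf2 count, which does not depend on library scaling, was 5.44, 5.23 and 4.8 in P0 crypt and 1.55, 1.17 and 2.14 in P10 crypt. In villus it was 6.01, 10.4 and 10.1 at P0 and 2.03, 1.37 and 3.27 at P10. All P0 libraries lay above all P10 libraries, a 3.28-fold fall of the ratio in crypt and a 4.11-fold fall in villus. The two-sided exact permutation p was 0.1 in each, the smallest that 3 against 3 libraries allow. The transcripts have like GC content, 55% for H19 and 55.4% for Igf2. At P6 the ratio was 0.631 to 1.36 in crypt and 0.849 and 1.23 in villus.

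**Figure D5:**
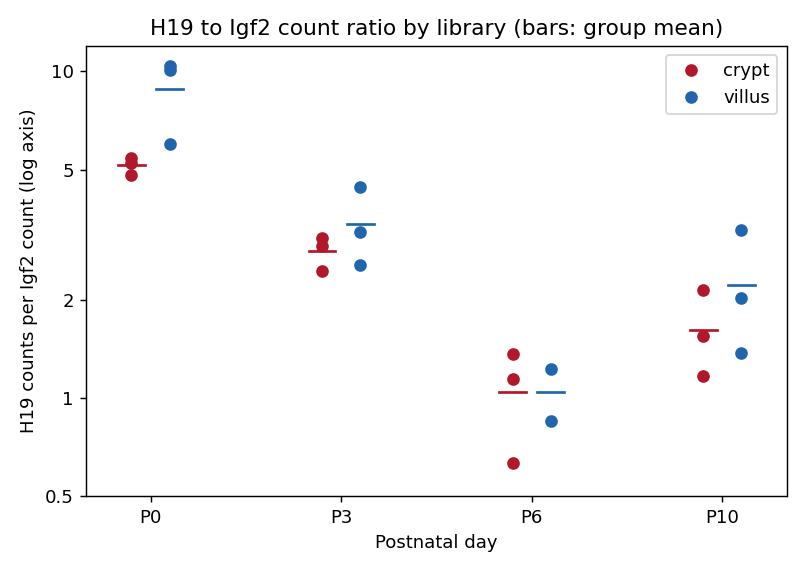
H19 counts per Igf2 count in each library (points, log axis) by postnatal day, with bars at the group means, crypt in red and villus in blue. All P0 libraries lie at 4.8 or above and all P6 and P10 libraries at 3.27 or below.

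Igf2, H19, Dlk1, Meg3 and Mest are also expressed by mesenchymal cells, so markers of other cell types were read in the same libraries. The summed level of 16 mesenchyme and smooth muscle markers was 13.9 to 75.9 CPM in P0 crypt and 11.2 to 35.2 CPM in P10 crypt, and 10.2 to 20.8 CPM in P0 villus and 14.1 to 23.2 CPM in P10 villus. Without Vim, the highest of them, it was 9 to 65.7 CPM in P0 crypt and 6.06 to 24.8 CPM in P10 crypt, and 5.04 to 9.3 CPM in P0 villus and 4.84 to 12.1 CPM in P10 villus. Of the 15 tested, 2 fell in crypt and 1 in villus from P0 to P10, with median log2 changes of -1.51 in crypt and 0.49 in villus. Of the 2 markers highest over all libraries, Vim had 5.17 to 14.6 CPM in P0 villus and Col3a1 0.213 to 0.338 CPM, while Lum was at 0 and Pdgfra had 1 count in all. At P0, 9 of the 15 were higher in crypt than in villus and none lower, with a median log2 difference of 2.58. P0 crypt library 1, the highest P0 crypt library for Igf2, H19, Igf2os, Cdkn1c, Dlk1, Meg3 and Mest, was also the highest for this list (75.9 CPM, with Col1a1 at 12.2 CPM). The part of these cells in the values of these 7 genes was not tested.

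Other lists gave low or single-gene signals. The mesothelium sum fell from 9.9 to 35.6 CPM in P0 crypt and 16.2 to 89.5 CPM in P0 villus to 0.959 to 3.18 and 3.15 to 10.1 CPM at P10, and nearly all of the P0 sum was Upk3b (8.54 to 34.3 and 14.6 to 88.4 CPM). The next marker, Msln, had 0.213 to 0.326 CPM in P0 villus, and Wt1 had 9 counts in P0 crypt and 2 in P0 villus. Of the 4 mesothelial genes tested, 1 fell in crypt, and 1 fell and 1 rose in villus. P0 villus library 2, the highest for H19 and Cdkn1c, held the highest sum, 89.5 CPM, and the part of such cells in these values was not tested. Immune markers summed to 13.2 to 90.7 CPM in P0 crypt, 84.4 to 114 in P0 villus, 5.25 to 8.54 in P10 crypt and 16.5 to 38.4 in P10 villus. Csf1r made up most of that, while Ptprc, the pan-leukocyte marker, stayed at 0.707 CPM or below at P0. Of 9 tested, 3 fell in crypt, and 1 fell and 1 rose in villus. Endothelial sums stayed at 5.39 CPM or below in every library (1 of 2 tested rose in each population), and erythroid sums at 6.99 CPM or below (2 of 2 fell in crypt, 0 in villus). Of the 5 enteric neuron and glia markers tested none passed in either population.

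Levels of epithelial cell type markers also changed over the same ages, and cell shares were not measured. All 5 villus enterocyte markers fell in crypt and 2 in villus, with sums of 1785 to 3950 CPM in P10 crypt and 24438 to 30982 CPM in P10 villus. Of the 5 crypt markers, led by Olfm4 and Mki67, 4 rose in crypt and 5 in villus. Their sums were 1152 to 1678 CPM in P0 crypt and 213 to 442 CPM in P0 villus. At P10 they were 5235 to 7160 CPM in crypt and 1676 to 2696 CPM in villus. Of the 9 general epithelial markers, 0 changed in crypt and 2 rose in villus, of 12 enteroendocrine markers 1 rose and 1 fell in crypt and 2 fell in villus, of 6 goblet markers 1 and 3 rose, and of 3 tuft markers tested 1 and 2 rose. The part of these shifts in the changes of the imprinted genes was not tested.

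Other imprinted genes were called at shares near those of all genes. Of 46 other imprinted genes tested out of 50 listed, 4 rose and 4 fell from P0 to P10 in crypt and 6 rose and 6 fell in villus, with medians of -0.14 and -0.09. Over all genes tested, 7.22% were called higher in crypt and 10.5% in villus, beside the 9.89% and 11.0% called lower. The largest changes among those called were falls of Mirg, a noncoding RNA downstream of Meg3 (-5.68 and -5.33), Peg10, a retrotransposon-derived placental gene (-3.93 and -3.53), Zdbf2 (-3.65 and -2.82) and Rian (-2.76 in crypt; -1.15 in villus, not called). Mirg, Peg10 and Zdbf2 had means of 0.0646 CPM or less in both P10 groups. Of the ages compared, only P0 could carry them through the count filter, so a call could hardly be other than a fall. Mirg rested on 71 counts in P0 crypt against 1 in P10 crypt, a ratio of 72.9 (95% interval 12.7 to 2919, Clopper-Pearson, counting error only), and Peg10 in villus on 21 against 2 counts. Rian in crypt lost its call without P0 crypt library 1 (-1.97, adjusted p = 0.0911) or P10 crypt library 2, and Peg10 and Zdbf2 lost theirs in villus without P0 villus library 2 or 3, among others. Dio3, at the far end of the Dlk1 and Meg3 cluster, encodes the deiodinase that inactivates thyroid hormone and was singled out after its values were seen: it rose by 2.47 in crypt (adjusted p = 0.000338) and 2.04 in villus (adjusted p = 0.00112) while its neighbours fell.

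Of 3 IGF ligand and receptor genes tested, 1 rose and 0 fell in each population. Igf1r, which encodes the receptor for both IGFs, rose from a mean of 52.2 to 104 CPM in crypt (adjusted p = 0.000781) and from 24.6 to 51.7 CPM in villus, by 1.07 on the log2 scale (adjusted p = 0.000506). Insr (0.25 and 0.60) and Igf2r, the imprinted receptor that clears IGF2 (-0.57 and 0.17), did not pass. Insr in villus was called without P0 villus library 1 (1.03, adjusted p = 0.000742) and with library size alone (0.80, adjusted p = 0.0136), among other settings. Igf2r in crypt was called with only the groups compared (-0.55, adjusted p = 0.0342). Igf1 and Ins2 had too few counts to test.

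Of 7 IGF binding protein genes tested, 1 rose and 1 fell in crypt and 2 rose in villus. Igfbp4, which encodes a binding protein that sequesters IGFs, rose in both (1.17 and 1.62). Igfals fell in crypt (-2.41; -0.87 in villus, not called), a call lost without P0 crypt library 1 (-1.50, adjusted p = 0.145) or P10 crypt library 1 or 2, and Igfbp1 rose in villus (2.79; 1.60 in crypt, not called), a call lost without P0 villus library 1 (2.40, adjusted p = 0.0571) or any other P0 or P10 villus library but P0 villus library 2. Igfbp2, Igfbp3, Igfbp5 and Igfbp7 did not pass, with changes between -1.31 and 1.82.

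Among 18 insulin and IGF signalling genes, 1 rose and 2 fell in crypt, and 2 rose and 3 fell in villus. Irs2, an adaptor of the insulin and IGF1 receptors, fell by 2.19 in crypt (adjusted p = 0.000617) and by 1.69 in villus (adjusted p = 0.00352). Pik3r1, a regulatory subunit of PI3 kinase, rose by 0.67 and 0.99, and Grb14, a relative of Grb10, fell by 0.66 in each. Pik3ca rose by 0.51 in villus, but was at -0.04 with the GC offsets. The crypt calls of Pik3r1 and Grb14 were lost when any 1 of the P0 or P10 crypt libraries was left out, the villus call of Grb14 when any 1 of the P0 or P10 villus libraries but P10 villus library 1 was, and that of Pik3ca without P0 villus library 3 or P10 villus library 2.

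Of 9 fetal growth genes tested, most of them acting on RNA or chromatin, 5 fell in crypt, 4 fell in villus and none rose. Igf2bp1 encodes an RNA-binding protein that binds Igf2 mRNA and fell in crypt (-2.94, adjusted p = 0.00415) and in villus (-3.07, adjusted p = 0.00327). Igf2bp2 (-0.65 and -0.69), Lin28b, an inhibitor of let-7 maturation (-2.51 and -2.82), and Afp, the fetal serum protein alpha-fetoprotein (-4.51 and -2.49), fell in both populations, and Hmga2 in crypt (-0.62, adjusted p = 0.0494; -0.32 in villus, not called). Lin28b in villus rested on 14 counts at P0 against 2 at P10, and the crypt call of Hmga2 was lost with library size alone (-0.43, adjusted p = 0.169). The villus call of Afp was lost without P0 villus library 2 (-1.82, adjusted p = 0.111) and without any 1 of the P10 villus libraries (adjusted p = 0.055 to 0.061). Lin28b lost its crypt call without P10 crypt library 2 or 3 (adjusted p = 0.11 and 0.0945) and its villus call without library 1 or 2 of either P0 or P10 villus (adjusted p = 0.096 to 0.158). Igf2bp3, Hmga1, Plag1 and Plagl2 did not pass, with changes between -0.51 and 0.27, and Lin28a was not tested.

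Of 6 other cyclin-dependent kinase inhibitors tested, 1 rose in crypt, and 2 rose and 1 fell in villus. Cdkn2c rose in both populations (1.36 and 1.42), and in villus Cdkn2a rose (2.44; -0.40 in crypt, not called) and Cdkn2d fell (-0.82; -0.37 in crypt, not called). The villus calls of Cdkn2a and Cdkn2d were each lost without P0 villus library 2 (adjusted p = 0.122 and 0.244) or 3, that of Cdkn2a also without P0 villus library 1, and that of Cdkn2d without any 1 of the P10 villus libraries. Cdkn1a, Cdkn1b and Cdkn2b lay between -0.40 and 0.48 and did not pass. Of 7 genes that maintain imprints, none passed in crypt, where changes ran from -0.67 to 0.53, and 4 rose in villus: the DNA methyltransferases Dnmt1 (0.95) and Dnmt3a (0.48), the hemimethylation reader Uhrf1 (0.52) and the insulator protein Ctcf (0.48). All 4 of these calls were lost without P0 villus library 2 (adjusted p = 0.0595 to 0.167) or 3, and those of Dnmt3a, Uhrf1 and Ctcf also without P10 villus library 1 or 2. Dnmt3b, Zfp57 and Trim28 did not pass in either population.

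As a description, genes outside the list were ranked by how closely their log2 CPM followed each member over the 23 libraries, which share age, sort and GC content. Among 12174 genes, Rbpms was the closest to both Igf2 (Pearson r = 0.956) and H19 (0.951), followed by Cntnap2 (0.954) and Arhgap10 (0.938) for Igf2 and by Pgm2 (0.945) and Dusp14 (0.922) for H19. Ralb (0.976), Snx3 and Atp6v1b2 were closest to Cdkn1c, Ept1 (0.977), Slc30a1 and Rab1a to Plagl1, and Rrm2 (0.921), Ldlrad3 and Poc1b to Grb10. Ykt6 (0.935), Slc37a2 and Ccdc32 led for Igf2os, Alpk3 (0.901), H2-Q10 and Ube2j2 for Meg3, Fkbp5 (0.872), Ptrhd1 and Alpk3 for Dlk1, and Runx1t1 (0.851), Gnai1 and Etv1 for Peg3. For Mest the closest, Opn3, reached 0.674, followed by Pea15a and S100a5.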

How the data were processed

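Whole-number read counts per gene, not normalized, were deposited for 23 libraries. Trim Galore, STAR, HTSeq and the build mm9 are named, without versions, per the submitters' processing notes; the strand setting is not given in the sources used here. Per the labels' protocols, a stranded poly(A) mRNA kit was used. HTSeq's summary lines were left out of totals: reads outside any gene were 6.8% to 13.5% and ambiguous reads 0.601% to 0.975% of all listed. Genes with enough counts (filterByExpr, at least 10 in a library and 15 in total, scaled to library size) were tested over all 8 groups with TMM factors (0.734 to 1.31) and edgeR's quasi-likelihood test (edgeR 4.0.16, R 4.3.3), with Benjamini-Hochberg adjustment over 16535 genes and a threshold of 0.05. A gene with enough counts at P0 alone entered the test through P0, which favours a call of a fall. The fit has 15 residual degrees of freedom. The ± values beside log2 changes are standard errors, and 95% intervals of log2 changes come from the same fit. Reads carry no molecular identifiers, so counting intervals cover counting error only.

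Levels per length used merged exons of GENCODE M21. GC content was matched for 96.5% of tested genes, and offsets were taken from splines with 5 degrees of freedom. Alternatives were DESeq2 1.42.0 (size factors, test), limma 3.58.1 (voom), library size alone, other filters, GC offsets, a replicate block, and left-out libraries. The pipeline was tested on simulated data. Deviations of crypt and villus libraries with the same number correlated at 0.273 to 0.637 at P3, 0.487 and 0.359 at P6, 0.557 to 0.635 at P10 and -0.151 to 0.373 at P0. Deviations cancel out within a group, so at P3, P6 and P10 libraries of different numbers must on balance have varied in opposite directions. Libraries with the same number were thus more alike at these ages, not clearly so at P0. The labels do not say whether a number stands for an animal or a batch. The main fit did not use the numbers, and the replicate block did. The members and lists were chosen with earlier results of these data known. Text names every member, the genes of lists with at most 10 genes, up to 4 of the largest called changes of longer lists, and the 3 closest genes per member. P0 crypt library 1 and P0 villus library 1 were singled out from these data.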

Additional observations from a re-analysis of the deposited data

How the results depend on the processing

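Over 2779 values of the 10 genes under other settings, 2563 kept their call and direction or were called in neither setting, 146 lost a call, 66 gained one and 4, called in at least 1 of the settings compared, turned direction. Another 157, counted among the 2563, changed sign but were called in neither setting. The P10 against P0 count stayed within 6 to 8 in crypt and 5 to 7 in villus. Outside the difference tests, the share of all genes called under these other settings is not given here. In the difference of the P0 to P10 change, 1 gene was called with the replicate block and GC offsets together (Igf2os), and in that of the P0 to P3 change 1 with the same setting and 1 without both P0 number 1 libraries (0 to 1 with 1 library left out). Over all 16535 genes, block and offsets together called 275 in the P0 to P10 difference and 384 in the P0 to P3 difference. From P0 to P3, 3 genes were called in crypt with block and offsets, and 2 in villus with the offsets, with or without the block. From P3 to P6 in crypt 1 was called with DESeq2 size factors and 0 with no filter, the offsets, or offsets and block (0 to 2 with 1 library left out); in villus 0 with no filter, 5 with only the groups compared and 1 with block and offsets (0 to 3). From P6 to P10 in crypt 2 were called with library size alone, with no filter, and with only the groups compared (1 to 5); in villus 1 with library size alone, 5 with the offsets, 6 with block and offsets and 5 with limma-voom (1 to 4). In crypt against villus at P0, 5 were called without both number 1 libraries, 1 with only the groups compared, and 4 with the replicate block, with or without offsets (1 to 3); at P6 1 with no filter (1 to 3); and at P10 3 to 6 with 1 library left out. The replicate block alone changed no call between populations at P3 or P10. Within every age and between ages the labels give the libraries only a shared number.

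Cdkn1c from P0 to P3 in crypt turned to 0.08 with the offsets and 0.02 with block and offsets, H19 from P6 to P10 in villus to -1.85 with block and offsets, Grb10 there to 0.03 with library size alone, and Pik3ca from P0 to P10 in villus to -0.04 and -0.03 with the offsets without and with the block; beyond the offsets' own construction, the cause was not tested. Dlk1 and Mest had 0 counts in both P6 villus libraries.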

Other observations

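Ins2, a paternally expressed neighbour of Igf2 in some tissues and an insulin gene, was singled out after its values were seen. It had 143 counts in P0 villus library 3, 1 count in each of the other P0 villus libraries and in 1 P3 villus library, and 0 counts in all other libraries. Igf1, the other ligand of the IGF1 receptor, had at most 11 counts in a library.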
